A study of Mus musculus with 21 samples.

Results

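Bone marrow-derived macrophages carrying floxed Gata3 and a Cx3cr1-driven Cre recombinase were compared with wild-type macrophages, both kept without added cytokine. The members were chosen by label: 6 of the 21 libraries of the series, 3 from floxed Cre cells and 3 from wild-type cells, and within them the 13908 autosomal genes, of 47069 in the count table, that passed a filter on low counts. The floxed Cre cells were labelled C57BL/6:Cx3cr1CRExGata3fl/fl and the wild-type cells C57BL/6. Both groups came from marrow cells cultured over 5 days with M-CSF-conditioned medium, M-CSF being the growth factor that turns marrow precursors into macrophages, and RNA was taken after a further 36 h in which these cells received no cytokine. The other 15 libraries came from the same genotypes under IL-33, from wild-type cells under IL-4, and from cells labelled ST2-/-, named for the IL-33 receptor, without cytokine or under IL-33. The labels give no age, sex, substrain or number of mice, and none of the 21 libraries is labelled as Cre alone or floxed Gata3 alone.

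GATA3 is a zinc finger transcription factor that binds GATA motifs and is best known for specifying T helper type 2 cells and group 2 innate lymphoid cells. The Cx3cr1 promoter is active in monocytes, microglia and many tissue macrophages, so a Cre placed under it removes a floxed segment in those cells and in their descendants. Macrophages take up dying cells and debris, present antigen on MHC class II and answer interferon, and the genes for these tasks are the groups described here.

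Each library held 40082441 to 48743646 counted reads in floxed Cre cells and 35995216 to 39295225 in wild-type cells. In floxed Cre cells the counts of Gata3 itself (chr2:9857078-9890034, minus strand, GRCm38) were 11, 3 and 18 reads, against 4, 6 and 7 reads in wild-type cells, so the gene was close to absent in both groups. Gata3 was not called as different (log2 fold change 0.72 ± 0.70, SE; adjusted p = 0.58 in edgeR's quasi-likelihood test), and counts over the whole gene do not check a deletion of part of it. Xist, the RNA of the inactive X chromosome, was at 277, 367 and 283 CPM, read counts scaled to a common library size, in floxed Cre libraries and at 0 reads in wild-type libraries, which makes it at least 3919-fold higher, with 3 reads per library as the floor. The Y-linked gene Ddx3y was at 0 reads in floxed Cre libraries and at 64.7, 64.6 and 62.2 CPM in wild-type libraries. All 6 floxed Cre libraries of the series had this female pattern and the other 15 the male pattern, so that sex and genotype cannot be told apart in any result below, and only autosomal genes are reported.

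Macrophage markers were present in both groups: the 16 genes of the macrophage core list summed to 31763 to 34322 CPM in floxed Cre libraries and 34735 to 37520 CPM in wild-type libraries, and none was at 0. Of its 15 autosomal members tested, 2 were higher, among them Cd68 (adjusted p up to 0.11 without a library), and 3 lower (Cd14, Maf and Cebpb) in floxed Cre cells. Over all genes 5.46% were called higher and 4.29% lower. The lower count was 5 without floxed Cre replicate 1 and 2 without floxed Cre replicate 2, floxed Cre replicate 3 or wild-type replicate 1, and the higher count was 1 without floxed Cre replicate 2 or wild-type replicate 3. The counts of Cebpb, which overlaps another gene over more than 20% of its exon bases, are uncertain. The remaining gene of the list, Itgam, was entered by a second record of that name with few reads, and so was left out of these calls. Its main record held 9716, 8933 and 7648 reads in floxed Cre libraries and 6603, 6590 and 6884 reads in wild-type libraries, before scaling to library size. The LPS co-receptor gene Cd14 was at 666, 669 and 659 CPM in floxed Cre libraries, against 826, 803 and 820 CPM in wild-type libraries (log2 fold change -0.30 ± 0.05, adjusted p = 0.00044), and the 2 groups did not overlap.

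Without cytokine, 1357 of the 13908 autosomal genes (9.76%) were called as different at an adjusted p under 0.05, 760 higher (5.46%) and 597 lower (4.29%) in floxed Cre cells. Most differences were small: 1026 of the called genes differed by under 1.5-fold, 192 by 1.5-fold to 2-fold, 93 by 2-fold to 4-fold and 46 by 4-fold or more, and the median called difference was 1.29-fold. There were 91 genes higher by 2-fold or more (0.654%) and 48 lower by 2-fold or more (0.345%). Most of these averaged under 2 on the log2 CPM scale: 23 and 17 remained when only genes averaging 2 or more were kept. Of the 139 genes, 73 stayed called without each of the 6 libraries. The 3 libraries of each group did not overlap in 31.0% of all genes tested. The number of calls depended on single libraries: without floxed Cre replicate 2 it was 622, without wild-type replicate 1 it was 741, and without wild-type replicate 3 it was 772, while 479 genes stayed called, in the same direction, without each of the 6 libraries. Genes named below kept their call without each library unless the highest adjusted p without a library is given.

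**Figure D1:**
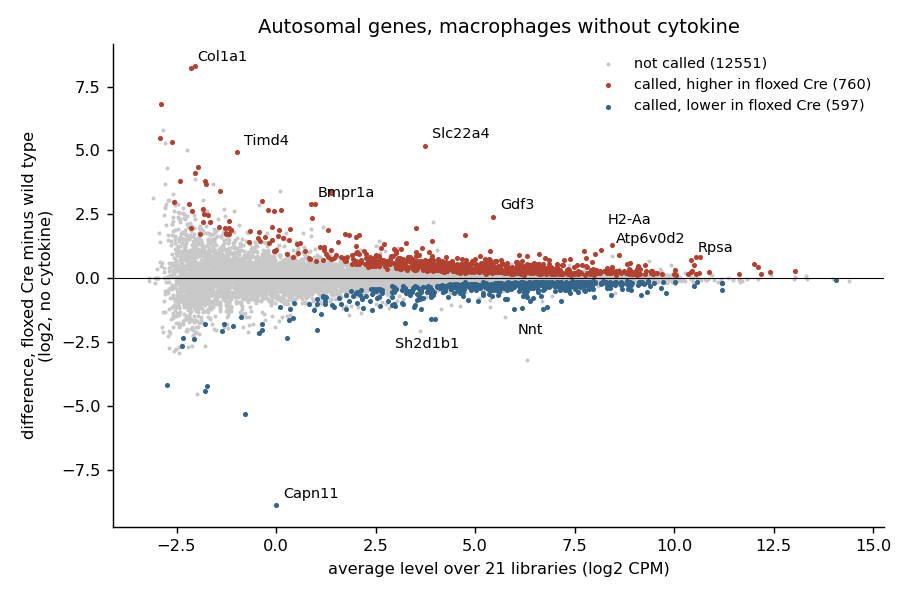
Difference between floxed Cre and wild-type macrophages without cytokine (vertical axis, log2) against the average level over all 21 libraries (horizontal axis, log2 CPM) for each autosomal gene tested. Red points are the 760 genes called higher and blue points the 597 called lower in floxed Cre cells, and most of them lie close to 0 on the vertical axis, with Slc22a4 and Gdf3 far above it.

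Among genes averaging 2 or more on the log2 CPM scale, the largest rise in floxed Cre cells was that of Slc22a4, which encodes the organic cation and ergothioneine transporter OCTN1. Slc22a4 (chr11:53983123-54028090, minus strand) was at 36.8, 39.5 and 37.2 CPM in floxed Cre libraries and 1.23, 0.700 and 1.18 CPM in wild-type libraries, a log2 fold change of 5.19 ± 0.22 (adjusted p = 1.7e-13). Every floxed Cre library was thus above every wild-type library by a wide margin, and the ST2-/- libraries without cytokine, at 1.27, 2.19 and 0.945 CPM, lay near the wild type. Gdf3, a ligand of the TGF-beta family, was at 134, 127 and 137 CPM in floxed Cre libraries and 26.2, 24.9 and 24.0 CPM in wild-type libraries (2.41 ± 0.07, adjusted p = 2.5e-16). Its ST2-/- libraries, at 13.8, 12.6 and 14.5 CPM, lay below those of the wild type.

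The promoter window of Slc22a4 is printed because it belongs to the largest rise; it comes from RefSeq's GRCm38.p6 annotation and covers 250 bases before to 50 bases after the gene start on the minus strand (chr11:54028055-54028354). Neither AGATAA, found on either strand in 11.2% of the 32851 mouse promoter windows of this length, nor TGATAA, found in 9.05%, occurs in it. These letters are GATA motifs, and their absence from the window says only that these exact letters are not there.
Slc22a4: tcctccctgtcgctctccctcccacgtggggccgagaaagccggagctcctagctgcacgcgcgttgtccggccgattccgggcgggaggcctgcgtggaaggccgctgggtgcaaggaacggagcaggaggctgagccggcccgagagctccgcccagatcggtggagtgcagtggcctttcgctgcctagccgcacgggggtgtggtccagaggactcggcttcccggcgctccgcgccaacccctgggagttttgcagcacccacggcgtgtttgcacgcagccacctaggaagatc

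Dio2 encodes the deiodinase that converts thyroxine to active thyroid hormone. It was at 37.1, 34.4 and 37.6 CPM in floxed Cre libraries and 13.1, 13.3 and 13.5 CPM in wild-type libraries (1.45 ± 0.19, adjusted p = 3.9e-05). Atp6v0d2, a subunit of the proton pump of lysosomes and osteoclasts that is also needed for macrophage fusion, was at 268, 328 and 291 CPM against 119, 159 and 138 CPM in wild-type libraries (1.09 ± 0.10, adjusted p = 1.7e-07). For both genes the groups lay well apart.

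Others of the 15 largest rises had lower counts. Mefv, which encodes the inflammasome sensor pyrin, rose by 1.36 ± 0.18 on the log2 scale, and the C-type lectin receptor gene Clec4b1 by 1.35 ± 0.20. The mitotic kinase gene Pbk rose by 1.18 ± 0.19, the neutrophilic granule protein gene Ngp by 1.16 ± 0.17, the acid phosphatase gene Acpp by 1.14 ± 0.24 and the kinase scaffold gene Ksr2 by 1.13 ± 0.24. In Mefv, Clec4b1, Pbk and Acpp the ST2-/- libraries without cytokine lay between the floxed Cre and wild-type libraries. Those of Ngp lay near the wild type, and those of Ksr2 overlapped the floxed Cre ones. For Clec4b1 the ST2-/- libraries held 4.77, 6.23 and 4.28 CPM. Tmem26 and Ear2 were under 1 CPM in all 6 libraries, and their average over the series came from other libraries. Ear2, of the eosinophil-associated ribonuclease family, whose near-identical copies make its counts uncertain, was at 44, 25 and 9 reads in floxed Cre libraries and 4, 5 and 8 reads in wild-type libraries. Eef1a2 and the protease inhibitor gene Spint1 were also under 1 CPM, and each lost its call without any of 4 libraries, with adjusted p up to 0.16 for Eef1a2 and 0.15 for Spint1. The ST2-/- libraries without cytokine held 0.556, 0.619 and 0.199 CPM of Eef1a2 and 0.579, 0.660 and 0.224 CPM of Spint1. For either gene they overlapped both the floxed Cre and the wild-type libraries. H2-Aa, the remaining gene among the 15, is described with its group.

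Within the same range of levels, the largest fall of a protein-coding gene was in Eps8l1, of the EPS8 family of actin regulators, at 5.13, 4.51 and 4.31 CPM in floxed Cre libraries and 15.7, 15.02 and 16.2 CPM in wild-type libraries (-1.74 ± 0.11, adjusted p = 4.2e-10). Sh2d1b1, an adaptor of SLAM-family receptors, was at 6.83, 5.58 and 7.03 CPM against 18.97, 20.2 and 20.01 CPM in wild-type libraries (-1.61 ± 0.12, adjusted p = 4.5e-09). Nnt encodes the transhydrogenase of the inner mitochondrial membrane that makes NADPH, and part of this gene is deleted in the C57BL/6J substrain of mice. Nnt (chr13:119335448-119408997, minus strand) was at 35.5, 40.9 and 34.3 CPM in floxed Cre libraries and 90.1, 82.2 and 85.5 CPM in wild-type libraries (-1.220 ± 0.06, adjusted p = 9.2e-12). The ST2-/- libraries held 71.7, 68.8 and 72.4 CPM of Nnt, between the 2 groups. A separate annotation record of the same name shares 47.4% of its exon bases, which makes its absolute count, and possibly the difference, uncertain.

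Cnbd2, a gene with a cyclic nucleotide-binding domain, was at 9.26, 6.32 and 8.28 CPM in floxed Cre libraries and 25.2, 23.8 and 23.7 CPM in wild-type libraries (-1.60 ± 0.12, adjusted p = 4.5e-09). Low Cnbd2 was not particular to floxed Cre cells, since the ST2-/- libraries held 9.86, 9.43 and 9.18 CPM, and 21.5% of its exon bases overlap a gene on the opposite strand. The calcium-dependent kinase gene Camk2b fell by 1.217 ± 0.13 on the log2 scale, the endothelin receptor gene Ednrb by 1.18 ± 0.13, the LIM protein gene Pdlim4 by 1.14 ± 0.12 and the endosomal recycling gene Rab4a by 1.07 ± 0.12. The heat shock gene Hspa1b, whose near-identical copy Hspa1a can share its reads, fell by 1.09 ± 0.17, and Trim30c, of a family of close copies, by 1.25 ± 0.26. The predicted gene Gm7694 fell by 1.18 ± 0.15. The last 4 of the 15 lost their calls without single libraries: Slco4a1, an organic anion transporter gene, with adjusted p up to 0.15, Fxyd2, a regulator of the sodium pump, up to 0.083, the interferon-stimulated gene Ifit1bl1 up to 0.11, and the helix-loop-helix gene Tal2 up to 0.14. In Slco4a1 the floxed Cre libraries held 64.9, 40.9 and 80.3 CPM and the wild-type libraries 186, 97.4 and 151 CPM, so the spread within each group was wide.

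**Figure D2:**
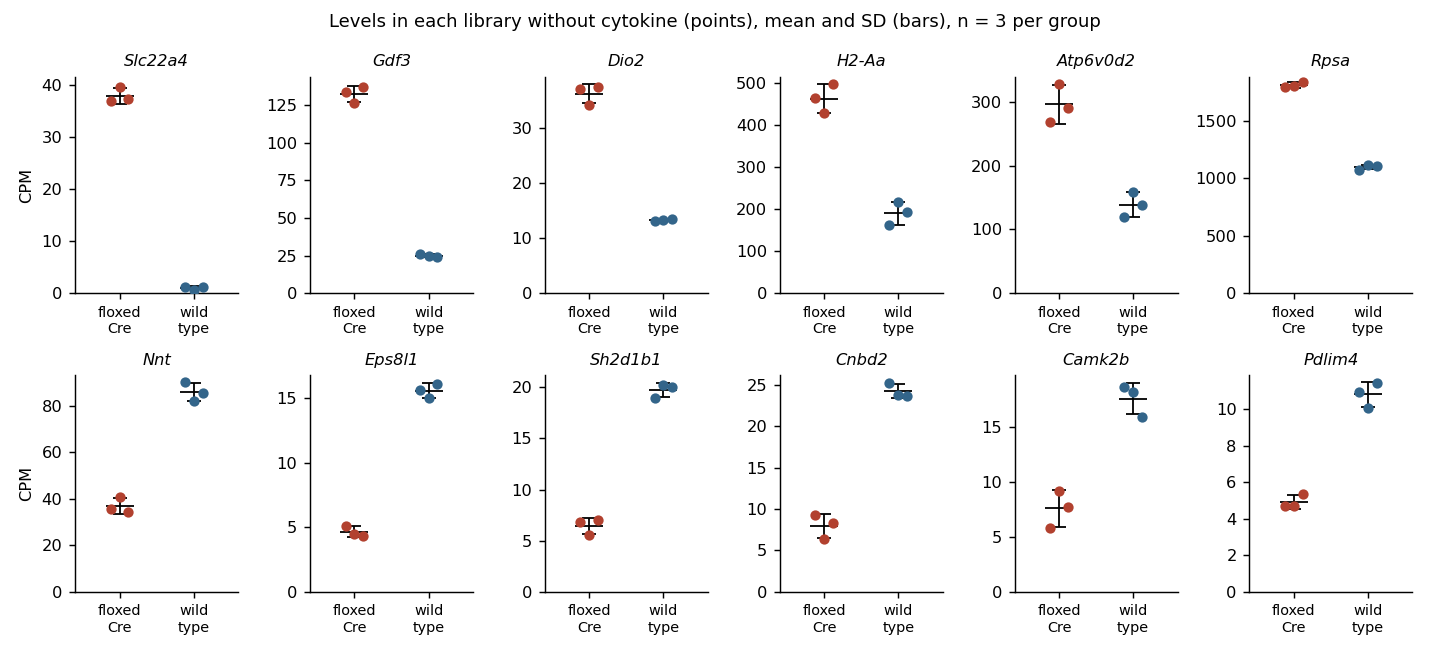
Level (CPM, vertical axes from 0) of 12 genes in each library without cytokine, floxed Cre in red and wild type in blue, with the mean and SD of 3 libraries as bars. In the top row every floxed Cre library lies above every wild-type library, and in the bottom row every floxed Cre library lies below them.

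Some genes outside this rule, named after their values were seen, were present in 1 group and nearly absent from the other. The calpain protease gene Capn11 had 0 reads in every floxed Cre library and 35, 56 and 80 reads in wild-type libraries, at least 21.8-fold lower in floxed Cre cells. Timd4, the phosphatidylserine receptor TIM-4 of resident macrophages, had 56, 30 and 32 reads in floxed Cre libraries and 2, 0 and 1 reads in wild-type libraries, a ratio of 34.2 with a 95% interval for counting error of 11.4 to 168. Both genes kept this pattern under IL-33, where Capn11 had 0, 0 and 0 reads in floxed Cre libraries against 43, 58 and 48 in wild-type libraries, and Timd4 had 94, 82 and 67 against 1, 6 and 0.

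Bmpr1a, a receptor for bone morphogenetic proteins, had 253, 193 and 186 reads in floxed Cre libraries and 16, 37 and 20 reads in wild-type libraries, a ratio of 7.53 after scaling to library size (interval 5.91 to 9.74). The scaffold gene Magi1 had 29, 35 and 15 reads against 2, 0 and 1 in wild-type libraries. The copine gene Cpne8 had 97, 56 and 65 reads against 11, 10 and 2 in wild-type libraries. Nbea, a vesicle trafficking gene, ran the other way, with 0, 2 and 0 reads in floxed Cre libraries and 17, 9 and 13 in wild-type libraries (22.4-fold lower, interval 5.80 to 192). Under IL-33 these 4 genes were again called in the same direction.

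Most MHC class II genes were higher in floxed Cre cells. Of the 10 genes of the presentation list, all tested, 8 were called higher and 0 lower, against 5.46% and 4.29% of all genes, and their median log2 fold change was 0.56, against 0.00286 over all genes. The 10 genes summed to 8504 to 9192 CPM in floxed Cre libraries, 6240 to 6935 CPM in wild-type libraries and 6896 to 7150 CPM in ST2-/- libraries. The 8 calls were the same number without each library.

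H2-Aa, the alpha chain of the class II molecule I-A, was at 463, 427 and 496 CPM in floxed Cre libraries and 162, 216 and 193 CPM in wild-type libraries (1.28 ± 0.11, adjusted p = 7.8e-08). H2-Eb1, the beta chain of I-E, was at 264, 248 and 284 CPM against 105, 145 and 136 CPM in wild-type libraries (1.04 ± 0.11, adjusted p = 1.7e-06). Neither gene's groups overlapped. H2-Ab1, the partner chain of H2-Aa, rose by 0.91 ± 0.11 and the invariant chain gene Cd74 by 0.81 ± 0.10. The peptide-loading genes H2-DMb1 and H2-DMa rose by 0.56 ± 0.09 and 0.55 ± 0.09, and Ciita, the transactivator of class II genes, by 0.50 ± 0.10 (adjusted p = 0.0035). Ctss, the cathepsin that trims the invariant chain, rose by 0.23 ± 0.04. Ifi30, the thiol reductase of the same pathway, was at 104, 114 and 103 CPM in floxed Cre libraries and 104, 114 and 103 CPM in wild-type libraries. In the MHC class I list 0 of 16 were higher and 1, Tapbp, was lower, against 5.46% and 4.29% of all genes. Tapbp shares 29.0% of its exon bases with a gene on the opposite strand, and its adjusted p was up to 0.13 without a library.

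The promoter windows of the pair with the largest rises in the class II list are printed, since class II promoters are known to share a Y box bound by NF-Y. Capitals mark CTGATTGG, searched on both strands as exact letters, so a window without them may still hold a variant of the Y box. Counted by gene, it occurs in a window of 4.7% of the 27025 genes in the RefSeq table and of 2 of the 7 genes of this list found there, H2-Aa (chr17:34287774-34288073, minus strand) and H2-Eb1 (chr17:34305617-34305916, plus strand).
H2-Aa: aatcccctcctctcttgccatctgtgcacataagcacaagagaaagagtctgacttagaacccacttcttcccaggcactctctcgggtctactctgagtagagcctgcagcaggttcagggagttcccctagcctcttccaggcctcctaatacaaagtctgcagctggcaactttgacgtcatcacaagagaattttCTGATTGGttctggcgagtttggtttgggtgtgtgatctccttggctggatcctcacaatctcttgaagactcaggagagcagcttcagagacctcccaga
H2-Eb1: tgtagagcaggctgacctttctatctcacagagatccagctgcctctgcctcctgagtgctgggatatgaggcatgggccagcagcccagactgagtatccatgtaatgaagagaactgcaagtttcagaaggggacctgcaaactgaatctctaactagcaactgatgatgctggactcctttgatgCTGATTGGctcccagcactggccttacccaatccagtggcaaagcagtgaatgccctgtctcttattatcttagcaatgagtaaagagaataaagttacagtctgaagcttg

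Of the 32 interferon-stimulated genes, 0 were called higher and 8 lower in floxed Cre cells, against 5.46% and 4.29% of all genes, and libraries of 1 group spread widely. The median log2 fold change was -0.50, and none of the 32 fitted values was above 0. In 16 of them the 2 groups did not overlap, against 15.2% of all genes tested. Given from the lowest to the highest library, the 32 genes summed to 1330, 1800 and 2201 CPM in floxed Cre libraries and 2384, 2456 and 3180 CPM in wild-type libraries. The ST2-/- libraries ran from 1331 over 1754 to 2208 CPM, about the range of the floxed Cre ones. The number of calls turned on single libraries: it was 1 without floxed Cre replicate 2, 1 without wild-type replicate 1, 3 without floxed Cre replicate 3, 5 without wild-type replicate 3, 9 without wild-type replicate 2 and 19 without floxed Cre replicate 1. It was 29 with no filter on low counts and 15 in a fit of the 6 libraries alone.

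Bst2, the tetherin gene that holds budding virus at the membrane, was at 242, 176 and 208 CPM in floxed Cre libraries and 396, 318 and 327 CPM in wild-type libraries (-0.73 ± 0.14, adjusted p = 0.0020). It was the only gene of the list that kept its call without each of the 6 libraries. Isg15, a ubiquitin-like modifier, was at 28.9, 13.7 and 23.1 CPM against 50.4, 33.8 and 36.4 CPM in wild-type libraries (-0.87 ± 0.24, adjusted p = 0.025). Floxed Cre replicate 2 was the lowest of all 6 libraries for both genes, and Isg15 lost its call without that library (adjusted p = 0.15), without floxed Cre replicate 3 (0.055) and without wild-type replicate 1 (0.14). Irf9 and Stat2, subunits of the factor that carries the type I interferon signal, fell by 0.30 ± 0.08 and 0.51 ± 0.14, with adjusted p up to 0.11 and 0.16 without a library. Irf7, with the lowest fitted value of the list, was not called (-0.90 ± 0.34, adjusted p = 0.097).

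Promoter windows of Isg15 (chr4:156200769-156201068, minus strand) and Bst2 (chr8:71537423-71537722, minus strand) are printed because interferon acts through a response element in such promoters. Capitals mark GAAA, any 2 bases and GAAA, searched on both strands as 1 motif, of which Isg15 holds 3 matches and Bst2 holds 2. Counted by gene, it occurs in a window of 3.99% of all genes in the table and of 15 of the 24 genes of this list found there.
Isg15: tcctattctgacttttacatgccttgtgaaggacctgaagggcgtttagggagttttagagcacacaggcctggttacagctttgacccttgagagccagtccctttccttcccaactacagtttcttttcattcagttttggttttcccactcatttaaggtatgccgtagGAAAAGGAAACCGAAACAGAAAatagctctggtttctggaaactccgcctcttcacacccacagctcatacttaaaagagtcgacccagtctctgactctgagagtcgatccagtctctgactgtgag
Bst2: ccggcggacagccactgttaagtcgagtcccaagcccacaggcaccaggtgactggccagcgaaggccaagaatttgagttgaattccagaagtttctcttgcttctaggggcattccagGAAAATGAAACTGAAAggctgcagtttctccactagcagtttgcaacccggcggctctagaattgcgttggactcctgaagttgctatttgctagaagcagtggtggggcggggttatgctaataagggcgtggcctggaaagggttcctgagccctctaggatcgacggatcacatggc

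Of 30 cell cycle genes, 18 were called higher and 0 lower in floxed Cre cells, against 5.46% and 4.29% of all genes, with a median log2 fold change of 0.42 and a fitted value above 0 for every gene. The 30 genes summed to 1952 to 2191 CPM in floxed Cre libraries, 1446 to 1608 CPM in wild-type libraries and 1708 to 2011 CPM in ST2-/- libraries. The count of calls was 11 without floxed Cre replicate 2, 11 without wild-type replicate 3 and 13 to 17 without the others. Mki67, the gene of the proliferation antigen Ki-67, was at 208, 257 and 211 CPM in floxed Cre libraries and 150, 121 and 132 CPM in wild-type libraries (0.75 ± 0.12, adjusted p = 0.00040). Top2a, the topoisomerase that untangles chromosomes before division, was at 185, 205 and 185 CPM against 117, 123 and 114 CPM in wild-type libraries (0.70 ± 0.10, adjusted p = 0.00012). In both genes all floxed Cre libraries were above all wild-type libraries. Of the DNA synthesis genes, Rrm2, a subunit of ribonucleotide reductase, rose by 0.87 ± 0.15 and the helicase subunit genes Mcm5 and Mcm7 by 0.59 ± 0.13 and 0.56 ± 0.10. The largest rise in the list was of Cdkn1c, an inhibitor of the cycle (0.90 ± 0.15), whose counts are uncertain because 30.7% of its exon bases overlap a gene on the opposite strand. The cyclin genes Ccnb1 and Ccne1 were not called (0.28 ± 0.11 and 0.04 ± 0.26).

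Among 20 genes of lipid handling, 8 were called higher (5.46% over all genes) and 0 lower, with a median log2 fold change of 0.15. Nr1h3, which encodes the sterol-sensing receptor LXR alpha, was at 26.9, 28.9 and 27.2 CPM in floxed Cre libraries and 17.4, 17.98 and 17.6 CPM in wild-type libraries (0.65 ± 0.08, adjusted p = 1.3e-05). Its 2 groups lay apart by far more than their spread. The fatty acid carrier genes Fabp4 and Fabp5 rose by 0.64 ± 0.09 and 0.34 ± 0.06, and Apoe, the lipid carrier that LXR induces, by 0.57 ± 0.12. The list's count was 4 without floxed Cre replicate 2, 4 without wild-type replicate 1, 5 without floxed Cre replicate 3 and 6 to 8 without the others.

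Of 15 genes of resident macrophages and microglia tested, 5 were higher and 2 lower, beside 5.46% and 4.29% of all genes. Cd9, a tetraspanin gene, was at 474, 512 and 477 CPM in floxed Cre libraries and 364, 402 and 388 CPM in wild-type libraries (0.34 ± 0.06, adjusted p = 0.00061), and Gpnmb, a glycoprotein gene of lipid-laden macrophages, rose by 0.27 ± 0.04. Folr2, a folate receptor gene, rose by 0.33 ± 0.07, with 63.1% of its exon bases shared with a gene on the opposite strand. The osteopontin gene Spp1 fell by 0.47 ± 0.09. Cx3cr1, the gene whose promoter drives Cre, was at 63.0, 62.0 and 65.2 CPM in floxed Cre libraries and 50.04, 50.02 and 53.1 CPM in wild-type libraries, without overlap but not called (0.31 ± 0.11, adjusted p = 0.076).

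Among 17 genes for the clearance of dying cells and for scavenging, 5 were higher and 1 lower, the second a share near the 4.29% over all genes. The higher count was 3 without floxed Cre replicate 2 or wild-type replicate 1, and the lower count was 2 without floxed Cre replicate 3. Axl, a receptor kinase that recognises dying cells through a bridging ligand, was at 245, 211 and 235 CPM in floxed Cre libraries and 164, 126 and 132 CPM in wild-type libraries (0.71 ± 0.16, adjusted p = 0.0057). Gas6, that bridging ligand, moved the other way, at 927, 731 and 890 CPM against 1413, 1193 and 1247 CPM in wild-type libraries (-0.60 ± 0.10, adjusted p = 0.00039). The groups did not overlap for either gene. Mfge8, another bridging protein, rose by 0.57 ± 0.09. The alternative activation list, of genes known to be induced by IL-4, had 4 higher and 1 lower of 23, or 2 lower without wild-type replicate 3. Over all genes 5.46% were higher and 4.29% lower, so the lower count was near that share. The chitinase-like gene Chil3 (0.90 ± 0.12) and the beta-glucan receptor gene Clec7a (0.54 ± 0.09) rose, while the galactose lectin gene Clec10a fell by 0.60 ± 0.12.

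The shared beta chain genes of the GM-CSF, IL-3 and IL-5 receptors, Csf2rb and Csf2rb2, rose by 0.46 ± 0.10 and 0.59 ± 0.09. They are close copies whose reads can be split between them. Il3ra, the IL-3 receptor chain, rose by 0.45 ± 0.08, and 5 of 11 genes of this receptor list were higher and 0 lower, or 3 higher without floxed Cre replicate 2, wild-type replicate 1 or wild-type replicate 3. NF-kB subunits and targets had 0 higher and 4 lower of 18 (4.29% lower over all genes), led by Ier3, an early stress gene, at 8.95, 8.68 and 10.1 CPM in floxed Cre libraries and 14.0, 13.8 and 13.6 CPM in wild-type libraries (-0.58 ± 0.13, adjusted p = 0.0063). That list had 2 lower without floxed Cre replicate 2 or wild-type replicate 2 and 1 without wild-type replicate 3. The inflammatory list had 0 higher and 2 lower of 20, the chemokine genes Ccl3 and Ccl4, each of which lost its call without any 1 of the 6 libraries. The nuclear-encoded respiratory chain had 2 higher and 3 lower of 40, shares near the 5.46% and 4.29% over all genes, and 1 to 3 higher and 1 to 2 lower without single libraries.

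Of the programme GATA3 is known for, the type 2 cytokine genes Il5 and Il13 had 0 reads in all 6 libraries. Il4 had 95, 82 and 79 reads in floxed Cre libraries and 110, 108 and 98 in wild-type libraries and was not called (-0.50 ± 0.21, adjusted p = 0.15). The IL-33 receptor gene Il1rl1 was at 13.7, 16.8 and 13.6 CPM against 14.6, 17.3 and 15.1 CPM in wild-type libraries (-0.09 ± 0.14, adjusted p = 0.75), with overlapping groups. In the list of this programme 0 of 10 genes were higher and 1, Maf, was lower (-0.27 ± 0.08), with an adjusted p of up to 0.13 without a library. Over all genes 5.46% were higher and 4.29% lower. Of 7 GATA factors and cofactors tested, 0 were higher and 3 lower by small amounts, or 1 lower without floxed Cre replicate 2, floxed Cre replicate 3, wild-type replicate 1 or wild-type replicate 2, and 2 without either other library. Lmo2, a bridging partner of GATA factors, was at 361, 321 and 350 CPM in floxed Cre libraries and 410, 400 and 413 CPM in wild-type libraries (-0.24 ± 0.06, adjusted p = 0.0074, and 0.064 without floxed Cre replicate 2).

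**Figure D3:**
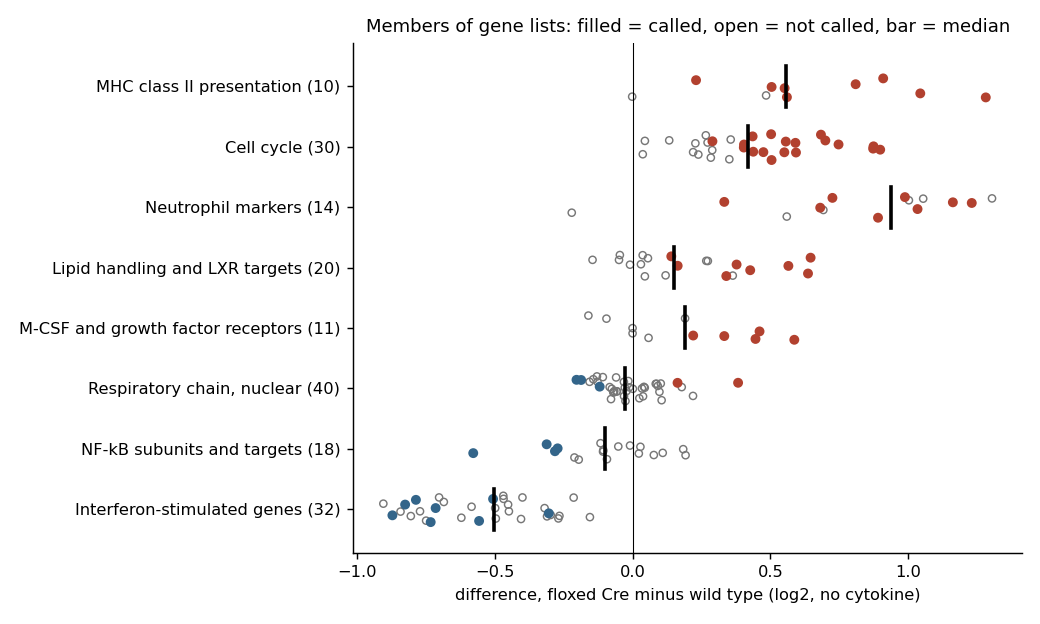
Difference between floxed Cre and wild-type cells without cytokine (horizontal axis, log2) for each tested member of 8 gene lists, with the number tested in brackets, called members filled, other members open and the list median as a bar. All 30 cell cycle genes lie above 0 and all 32 interferon-stimulated genes below it, while the 40 respiratory chain genes centre on 0.

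Markers of other cells moved beside these groups, and their part in the results was not tested. Of 14 neutrophil marker genes tested, 8 were higher in floxed Cre cells (5.46% over all genes) and 0 lower, with a median of 0.94, and their summed level was 180 to 205 CPM in floxed Cre libraries and 128 to 140 CPM in wild-type libraries. The call count was 5 without floxed Cre replicate 3 and 6 to 8 without the others. Most of the summed level came from 1 gene, Csf3r, whose adjusted p was up to 0.15 without a library. It had 5371, 5353 and 4689 reads in floxed Cre libraries and 3172, 3692 and 3872 reads in wild-type libraries. S100a9, a calcium-binding protein of neutrophils and monocytes, was at 15.9, 16.9 and 18.3 CPM in floxed Cre libraries and 8.36, 9.81 and 6.76 CPM in wild-type libraries (1.03 ± 0.15, adjusted p = 9.8e-05). Mpo, the peroxidase of granulocyte precursors, had 161, 119 and 92 reads against 42, 41 and 54 in wild-type libraries. The defining neutrophil marker Ly6g had 0 reads in all 6 libraries. Dendritic cell markers summed to 109 to 179 CPM in floxed Cre libraries and 54.9 to 104 CPM in wild-type libraries, most of it Itgax, an integrin gene that macrophages also express. The ST2-/- libraries without cytokine summed to 132 to 172 CPM, within the range of the floxed Cre ones. T and NK cell markers summed to 308 to 319 CPM and 174 to 208 CPM in wild-type libraries, nearly all of it from 1 gene, Il7r, the IL-7 receptor gene, at 280, 287 and 283 CPM in floxed Cre libraries and 148, 177 and 169 CPM in wild-type libraries (0.78 ± 0.06, adjusted p = 4.4e-08). Il7r was the only one of the 7 members tested that was called, and the list median was 0.04. Members restricted to T cells were at a trace and ran both ways, with 16, 0 and 5 reads of Cd3e in floxed Cre libraries against 1, 0 and 1 in wild-type libraries, and 1, 0 and 1 reads of Cd8a in floxed Cre libraries against 9, 7 and 2 in wild-type libraries.

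Stromal and endothelial markers summed to 27.2 to 35.4 CPM in floxed Cre libraries and 21.4 to 28.2 CPM in wild-type libraries, most of it Kdr. Of the 16, 2 were at 0 in floxed Cre libraries and 8 in wild-type libraries. Of the 11 tested, 2 were called higher and 0 lower (5.46% and 4.29% over all genes), and 8 had a fitted value above 0. Cdh5 had 14, 3 and 5 reads in floxed Cre libraries and 17, 7 and 2 reads in wild-type libraries. Col1a1 had 72, 26 and 28 reads and Col1a2 had 75, 20 and 39 reads, against 0 reads of either collagen gene in all 3 wild-type libraries. They were at least 12.2-fold and 12.96-fold higher in floxed Cre cells. In the floxed Cre libraries under IL-33 Col1a1 had 0, 5 and 2 reads, against 7, 2 and 0 in wild-type libraries under IL-33. Of 7 mast cell and basophil markers tested, 1 was higher (0 to 1 without single libraries), with a median log2 fold change of 0.913. Of 4 eosinophil markers 1 was higher (0 to 1), with a median of 0.282. Of 8 B and plasma cell markers 1 was higher (1 to 2), with a median of 0.495. Of 7 erythroid and megakaryocyte markers 0 were called, with a median of 0.315. In these lists 0 were lower, beside 5.46% higher and 4.29% lower over all genes. Because these are bulk samples, more cells of a type and more RNA per cell cannot be told apart for any marker.

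Near the genes named in the genotype label, 2 of the 46 genes tested within 5 Mb of Gata3 were higher and 0 lower, 4.35% against 9.76% overall. These were Mcm10, a replication gene, and Vim, the intermediate filament gene, and both lost their call without single libraries (adjusted p up to 0.19 and 0.13). Within 5 Mb of Cx3cr1 (chr9:119901616-120069879, minus strand), whose promoter drives Cre although the labels do not say where Cre is inserted, 6 of 80 genes were higher and 3 lower, 11.25% in all. The gene nearest to Cx3cr1 among these was Slc25a38, a mitochondrial glycine carrier gene of haem synthesis, whose start lies 0.0405 Mb from that of Cx3cr1 and rose by 0.63 ± 0.07 (adjusted p = 9.1e-06). Rpsa, a ribosomal protein gene that starts 0.0578 Mb from it, was at 1792, 1797 and 1839 CPM in floxed Cre libraries and 1075, 1112 and 1106 CPM in wild-type libraries (0.72 ± 0.04, adjusted p = 2.1e-10). Its 2 groups were far apart relative to their spread. Rpsa has processed copies elsewhere that can take its reads, and the copy Rpsa-ps10 on chromosome 3 rose by 0.57 ± 0.06. On the other side, Acaa1a, a peroxisomal thiolase gene, fell by 0.50 ± 0.07 and its neighbour Myd88, the adaptor of Toll-like and IL-33 receptors, by 0.22 ± 0.05. They overlap on opposite strands, over 6.57% of the exon bases of Acaa1a and 11.3% of those of Myd88, and so may share reads. Neither was called under IL-33 (log2 fold change -0.12 for Acaa1a and 0.03 for Myd88). Among the autosomes the called share ran from 6.997% on chromosome 18 to 14.7% on chromosome 15.

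**Figure D4:**
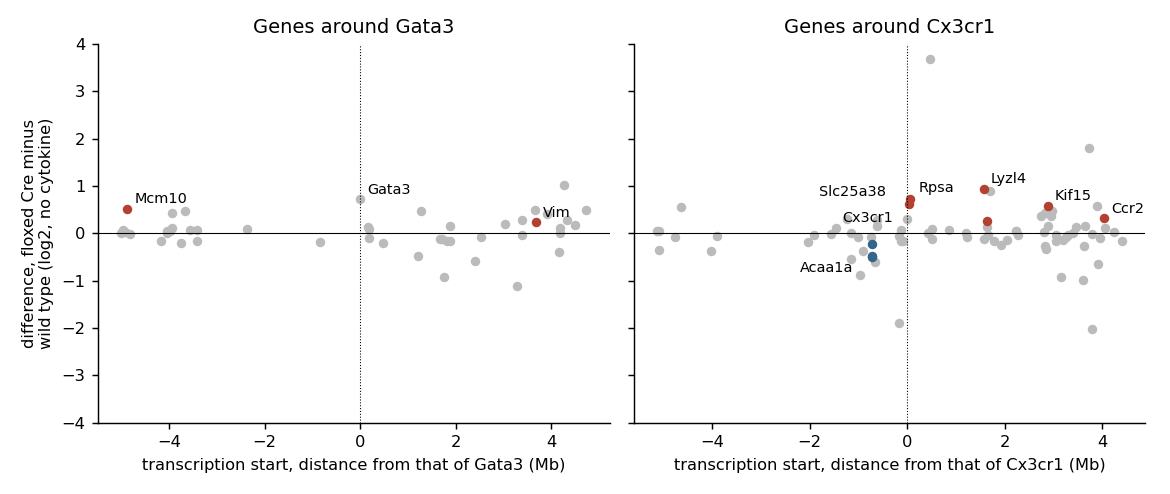
Difference between floxed Cre and wild-type cells without cytokine (vertical axes, log2) for each gene tested within 5 Mb of Gata3 (left) and of Cx3cr1 (right), against the distance between transcription starts (Mb). Red points are called higher, blue points called lower and grey points not called, and Rpsa and Slc25a38 stand together just beside Cx3cr1.

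Genes called at 2-fold or more lay within 1 Mb of another such gene in 16 places. On chromosome 1, Sh2d1b1, Gm7694, Nos1ap and Olfml2b, between 170277320 and 170682789, were all lower. On chromosome 11, Slc22a4 rose and its neighbour Pdlim4 fell, while 3 more genes of that place, Lyrm7, Slc36a2 and Sparc, rose. Their log2 fold changes were 1.90, 1.92 and 4.13. Lyrm7 and Sparc lost their call without single libraries (adjusted p up to 0.092 and 0.13). On chromosome 4, Gabrd, 5830444B04Rik and Cfap74 rose together, the second of them by 2.92 ± 0.32, while Gabrd and Cfap74 lost their call without single libraries. On chromosome 14 the adjacent genes Pbk and Esco2, a cohesin acetyltransferase gene, rose by 1.18 ± 0.19 and 1.07 ± 0.17. These places are a description of position, and no test was made of how often genes fall together.

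IL-33 libraries of the same genotypes share no library with the comparison without cytokine. The labels do not say whether they came from other mice, so agreement between the settings may not be a repeat in separate animals. Under IL-33, 1566 of the 13908 genes (11.3%) were called between floxed Cre and wild-type cells, 745 higher (5.36%) and 821 lower (5.90%). Of the 1357 genes called without cytokine, 1166 had the same sign under IL-33 (85.9%), against 61.0% of genes not called. The same call in the same direction was made for 501 genes, 36.9% of those called without cytokine and 32.0% of those called under IL-33, and 13 were called in the opposite direction. Of the 139 genes called at 2-fold or more, 62 were called in the same direction and 0 in the opposite one.

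Several leading genes differed to a like extent in both settings. Gdf3 was higher by 2.41 ± 0.07 without cytokine and by 2.35 ± 0.08 under IL-33. The log2 difference was -1.220 and -1.24 for Nnt, -1.74 and -1.71 for Eps8l1, and 0.72 and 0.69 for Rpsa. For H2-Eb1 it was 1.04 without cytokine and 0.43 under IL-33, and the test of the difference between settings called this change (adjusted p = 0.046). That test did not call H2-Aa (0.72 under IL-33, adjusted p = 0.074) or Cd74 (0.26 under IL-33, adjusted p = 0.065). It called 172 autosomal genes (1.24%), of which 69 were among the 1357. The 1357 were called on the same difference without cytokine that this test subtracts, so such an overlap was favoured in advance.

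**Figure D5:**
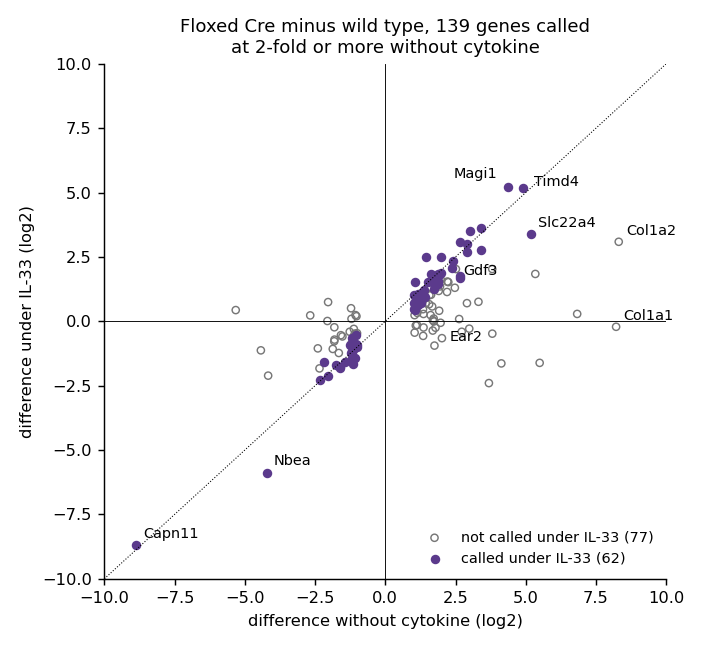
Difference between floxed Cre and wild-type cells without cytokine (horizontal axis, log2) and under IL-33 (vertical axis, log2) for the 139 genes called at 2-fold or more without cytokine. Filled points were called under IL-33 (62) and open points were not (77), the dotted line marks equal differences, and Col1a1 lies near 0 on the vertical axis.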

How the data were processed

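Total RNA of 21 macrophage cultures was sequenced as 150-base pairs from libraries made with 1 ug of RNA. The authors deposited whole-number read counts per gene. Per the submitters' processing notes, HISAT2 2.0.5, HTSeq 0.6.1 and DESeq2 1.22.2 were used with the GRCm38 (mm10) assembly; the annotation and strand setting used for counting are not given in the sources used here. Samples were grouped by the strain and stimulation labels. Nothing in the labels says whether replicates came from separate mice, so the spread behind each p-value may be technical.

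Counts were analysed with edgeR 4.0.16 (limma 3.58.1, R 4.3.3). filterByExpr with 7 groups kept 14473 genes holding at least 99.97% of each library's counts, and 13908 of them are autosomal by GENCODE M21, which matched 46488 of 47069 identifiers. All 21 libraries entered 1 quasi-likelihood fit of group means with TMM normalization (common dispersion 0.00740, 14 residual degrees of freedom). The contrast was floxed Cre minus wild type without cytokine, with Benjamini-Hochberg adjustment over all genes tested. Depth was 32626469 to 48743646 counts per library. CPM are scaled by TMM library sizes, except summed marker levels, which use total counts. A standard error is the absolute log2 fold change divided by the root of F. Intervals for ratios of reads are 95% exact intervals and cover counting error only, as do floors of 3 reads per library. All replicate libraries differed by more than sampling noise.

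Genes were named by rule: the targeted and sex check genes, the 15 largest rises and 15 largest falls among called protein-coding genes whose groups did not overlap and whose log2 CPM averaged 2 or more, up to 4 leading called members of each list, and called genes near Gata3 or Cx3cr1, or near each other. Not every gene so reached is printed. The comparison, its members and the 46 gene lists were chosen with earlier results of these data known. Counts of genes sharing at least 20% of their exon bases with another gene were treated as uncertain (14 of 239 checked). Promoter windows came from a RefSeq table that holds windows for only some genes. The fit was tested on simulated data. Alternatives were other normalizations, filters, DESeq2 1.42.0, limma-voom, smaller fits, a replicate block and leaving out each library.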

Additional observations from a re-analysis of the deposited data

Results flagged for a closer look

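For 5 genes among the largest rises without cytokine, the difference between floxed Cre and wild-type cells was itself different under IL-33 by the interaction test of edgeR. These genes were picked for a large difference without cytokine, which the test subtracts, so a negative change was favoured in advance. Ear2 and Tmem26 were also very low in every floxed Cre and wild-type library without cytokine. The change in the log2 difference, IL-33 minus no cytokine, was -1.79 for Slc22a4 (adjusted p = 0.0023), -2.03 for Ear2 (0.040), -2.05 for Tmem26 (0.00079), -1.08 for Mefv (0.030) and -1.91 for Clec4b1 (0.0014). Slc22a4 stayed higher under IL-33, at 40.1, 49.7 and 44.8 CPM in floxed Cre libraries and 3.75, 4.25 and 4.79 CPM in wild-type libraries. The other 4 genes were not called between the genotypes under IL-33. Mefv was then at 21.2, 22.6 and 17.4 CPM in floxed Cre libraries and 13.5, 16.8 and 20.01 CPM in wild-type libraries, with overlapping groups.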

How the results depend on the processing

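The 4 counts of called genes (760 higher, 597 lower, and 91 and 48 at 2-fold or more) stayed within 1.5 times of their value under upper-quartile normalization, DESeq2's size factors, no filter, autosomal genes only, the fit of 6 libraries, limma-voom and DESeq2. DESeq2 called 855 higher and 861 lower, so 49.8% of its calls were higher, against 56.0% here. Keeping only genes averaging 2 or more log2 CPM left 9768 autosomal genes tested and 1378 called, but only 23 higher and 17 lower by 2-fold or more. Most genes called at 2-fold or more thus averaged under 2 log2 CPM. Leaving out each library in turn gave 388 to 610 higher, 234 to 572 lower, 57 to 84 higher by 2-fold or more and 32 to 57 lower by 2-fold or more. With 1 library left out, the group of 2 is assumed to vary like the others.

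The labels do not say whether replicate numbers pair the samples, and the main fit treated the libraries as unpaired. The correlations of same-numbered libraries' deviations were 0.0390, 0.0607 and 0.0196, all under 0.1. Each library still correlated best with its own number, a hint from the data and not from the design. Whether the libraries are paired was therefore not settled. With 2 choices changed at once, a fit of the 6 libraries alone with a replicate block called 1111 higher, 994 lower, 94 higher by 2-fold or more and 63 lower by 2-fold or more, 2105 calls in all, against 1573 in the fit of the 6 libraries without the block and 1357 in the fit of 21. For named genes, 456 of 490 values kept their direction and side of the threshold, 29 lost the call, 5 gained it (all Cx3cr1) and 0 reversed. Counts limit genes under 1 CPM most. List counts without single libraries were added after the data were seen.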

Other observations

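Receptors for steroid and lipid hormones, not described above, had 3 higher and 3 lower of 13 genes tested, against 5.46% and 4.29% of all genes. With each library left out in turn 2 were higher, and 1 was lower without floxed Cre replicate 2 and 2 without wild-type replicate 1. The mineralocorticoid receptor gene Nr3c2 was at 0.628, 1.17 and 1.06 CPM in floxed Cre libraries and 0.191, 0.363 and 0.200 CPM in wild-type libraries (1.90 ± 0.43, adjusted p = 0.0062), and the vitamin D receptor gene Vdr rose by 1.56 ± 0.35. Both were low in every library. Rxra, the shared partner of many of these receptors, was at 46.4, 49.1 and 48.0 CPM against 63.7, 61.2 and 65.6 CPM in wild-type libraries and fell by 0.41 ± 0.05 (adjusted p = 2.3e-05). The ribonuclease gene Rnase4, which shares part of its exons with Ang, fell by 0.56 ± 0.10.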
